A study of Mus musculus with 12 samples.

Results

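The genes described here encode the replication-independent histone variants of the mouse, 9 genes named by symbol out of the 54532 genes in the deposited table: the H2A variants H2afj, H2afx, H2afz, H2afv, H2afy and H2afy2, the H3.3 genes H3f3a and H3f3b, and the linker histone gene H1f0. They were chosen by their known roles and on FPKM values of these same libraries, with the difference of H2afj between the groups in view, so the group difference is described below without a test. RNA of the lateral septum, a septal nucleus of the forebrain, was sequenced in 12 libraries labelled day 3. CFA had been injected for 6 of them and saline for the other 6. In pain studies CFA commonly stands for complete Freund's adjuvant, an oil emulsion with killed mycobacteria that inflames the injected tissue. Both groups were labelled WT, and the labels give no injection site, age or sex and do not say that each library came from a separate animal, so p-values measure the spread between libraries, which may be technical. The title of the series names microglial TIA1, NF-kB signalling and chronic inflammatory pain, and its design asks which genes differ between the 2 groups.

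Nucleosomes made during DNA replication use histones from clustered genes that are active in S phase and whose mRNAs mostly lack a poly(A) tail. Most variants are transcribed outside S phase as polyadenylated mRNAs, H2afx also giving an mRNA without a tail in S phase, and supply new histone to cells that no longer divide, such as neurons. H3.3 marks active genes and regulatory elements, H2A.Z sits at promoters, macroH2A carries a large extra domain and is enriched on silent chromatin, phosphorylated H2A.X marks DNA breaks, H1.0 accumulates in differentiated cells, and H2A.J accumulates in senescent human fibroblasts.

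The DNA just before the transcription start is shown for 3 of the H2A genes on which the levels below turn, H2afj and the H2A.Z pair, because all 3 hold the same short motif several times. The sequences are from RefSeq (build GRCm38.p6), written 5′ to 3′ on the gene's strand and without the bases that GENCODE M21 places in an exon. Capitals mark the 5-letter motif CCAAT, the binding motif of the factor NF-Y, or its reverse complement ATTGG.
H2afj, chr6:136807998-136808243, plus strand: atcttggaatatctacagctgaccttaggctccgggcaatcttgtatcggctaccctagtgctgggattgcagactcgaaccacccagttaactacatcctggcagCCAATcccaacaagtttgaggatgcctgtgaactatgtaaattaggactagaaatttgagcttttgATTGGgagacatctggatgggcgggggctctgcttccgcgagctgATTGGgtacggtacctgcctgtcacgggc
H2afz, chr3:137864375-137864486, plus strand: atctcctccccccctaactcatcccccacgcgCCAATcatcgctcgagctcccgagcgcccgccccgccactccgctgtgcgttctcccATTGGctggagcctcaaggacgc
H2afv, chr11:6444444-6444693, minus strand: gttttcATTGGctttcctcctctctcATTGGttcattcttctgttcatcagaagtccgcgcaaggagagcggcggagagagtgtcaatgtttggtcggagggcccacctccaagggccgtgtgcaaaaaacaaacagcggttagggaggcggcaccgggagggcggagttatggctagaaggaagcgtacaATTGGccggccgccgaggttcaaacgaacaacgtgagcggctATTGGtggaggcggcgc

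Windows of 300 bases, 250 before the start and 50 after it, were found for 8 of the 9 genes, under their RefSeq symbols. CCAAT on either strand occurred 4 times in the windows of H3f3b and H2afv and 3 times in those of H2afj and H2afz, once in those of H3f3a and H2afy2 and not at all in those of H2afy and H1f0. Of all 32851 windows in the same table, 37.4% held at least 1 CCAAT, 3.37% at least 3 and 1.06% at least 4. The motif TATAAA was in 1 of the 8 windows, that of H3f3b, against 13.6% of all windows. These matches describe the letters in a window and no binding.

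All 9 genes passed the filter for testing, a level of 1 FPKM or more in 6 or more libraries, which 13345 genes passed. FPKM scales fragments by gene length and by a divisor for each library, so a comparison of levels between genes rests on the deposited length of each gene. H2afy, for example, averaged 3144 reads over a length of 6809 bases, and H2afy2 718 reads over 2175 bases. Between 489 and 8757 reads per library lay behind each value of these genes, out of 33.6 to 39.2 M reads per library. The spread between libraries of a group was 5.51% to 10.8% of the mean for each gene, larger than the counting error alone, 1.15% to 3.82%, in all 9.

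Some libraries stood apart. Ttr, the main transcript of the choroid plexus, was 2259 FPKM in saline 3 and 701 FPKM in saline 5, and at most 66.6 FPKM in the other 10. Xist was at least 34.9 FPKM in 5 CFA and 2 saline libraries and at most 0.0199 FPKM in 1 CFA and 4 saline libraries. Ddx3y, a gene of the Y chromosome, was 13.9 to 15.4 FPKM in the libraries without Xist and at most 0.0202 FPKM in those with it. By both genes, 5 CFA and 2 saline libraries were female and 1 CFA and 4 saline libraries male. Sex was thus unevenly spread over the groups, and its part in the group differences was not tested. The summed FPKM of 10 lateral septum neuron markers, Gad1, Zic1 and Trpc4 among them, was 587 to 704 in CFA and 634 to 728 in saline, with all 10 past the filter. All 10 were lower in CFA (median log2 difference -0.12). Markers of striatal projection neurons, from the neighbouring striatum, were all higher in CFA (10 of 10, median 0.46) and summed to 478 FPKM in CFA 1 and to 130 to 333 FPKM in the other 11 libraries. Erythroid markers were higher in CFA in 5 of 5 (median log2 difference 0.73) and summed to 78.9 to 668 FPKM in CFA and 157 to 333 FPKM in saline. Oligodendrocyte markers were higher in 8 of 8 (median 0.15). Their sums were 1130 to 2696 FPKM in CFA and 854 to 2226 FPKM in saline, the lowest in saline 1. The median sum was not higher in CFA, at 1915 FPKM in CFA and 1939 FPKM in saline. Markers of oligodendrocyte precursors were lower in 6 of 6 (median -0.09), with sums of 69.7 to 106 FPKM in CFA and 72.4 to 101 FPKM in saline. None of the genes on these 5 lists passed limma, and their part in the histone values was not tested. Microglia markers were mixed, 5 higher and 5 lower in CFA (median 0.03). Of these 10, 6 were at an unadjusted limma p under 0.05, 3 in each direction, against 7.67% of all genes tested. Astrocyte (3 higher, 5 lower) and endothelial markers (2 higher, 4 lower) were mixed too. Tested ependymal markers were all higher (5 of 5) and those of choroid plexus all lower (3 of 3). None of these passed either.

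H2afj, which encodes H2A.J, was the variant with the largest difference between the groups. H2afj (chromosome 6, 136808244 to 136810074, plus strand, with transcripts of 1 or 2 exons in GENCODE M21) was lowest at 7.19 FPKM, had a median of 8.61 and reached 10.6 FPKM in CFA libraries, against a lowest value of 10.7, a median of 11.9 and a highest of 12.1 FPKM in saline libraries. Every CFA library lay below every saline library, though the highest CFA value, of CFA 4, came close to the lowest saline value, of saline 5. H2afj averaged 8.69 ± 1.28 FPKM in CFA and 11.7 ± 0.496 FPKM in saline (SD, n = 6 each), a ratio of 0.741. On the log2(FPKM + 1) scale, which understates changes of low genes, the difference was -0.40 (SE 0.08, 95% interval -0.56 to -0.24). That interval takes no account of the choice of H2afj on this difference. The libraries were more spread in CFA than in saline.

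Of the 9 genes, 1, H2afj, had groups that did not overlap, with CFA below saline, while 0.292% of the 13345 genes tested did so in that direction. None of the 9 passed limma at a Benjamini-Hochberg adjusted p under 0.05 over all genes, where 0.0300% of genes passed (0.0150% lower in CFA, 0.0150% higher in CFA); nothing is read from these counts, since this comparison helped choose the genes.

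The values by Xist follow; since the groups do not overlap, no split could turn their order, and the part of the uneven Xist in the difference was not tested. Among libraries with Xist, H2afj was 7.19 to 10.6 FPKM in 5 CFA libraries and 10.7 to 11.8 FPKM in 2 saline libraries. Among those without, it was 7.98 FPKM in the single CFA library and 11.8 to 12.1 FPKM in 4 saline libraries. The size of the log2 difference ranged over -0.46 to -0.36 with 1 library left out and was -0.33 over the libraries with Xist.

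**Figure D1:**
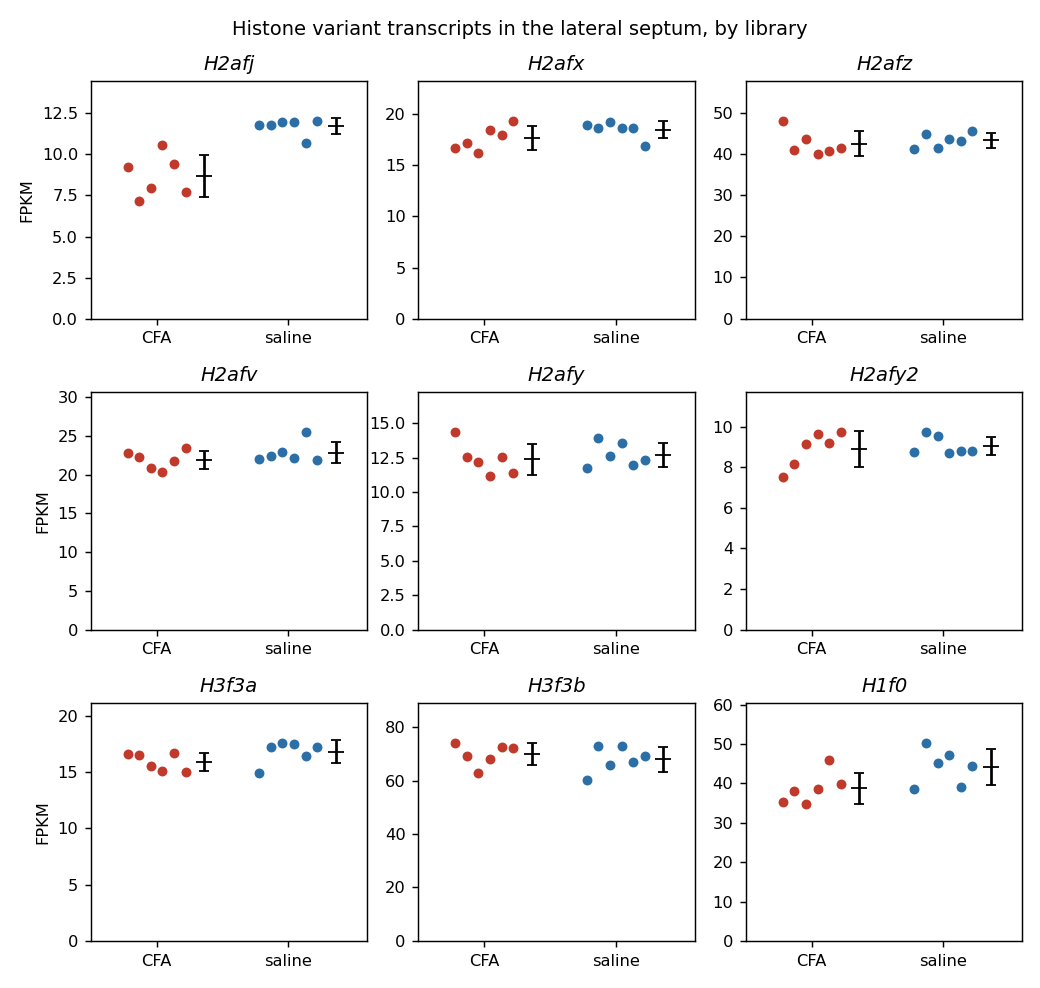
FPKM of each of the 9 histone variant genes in every library (points, in order of replicate number), with CFA left of saline and the mean and SD (n = 6) beside each group. In H2afj all CFA points, up to 10.6 FPKM, lie below all saline points, from 10.7 FPKM; in the other 8 genes the groups overlap.

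H2A.X had a small difference. H2afx (chromosome 9, 44334694 to 44336077, plus strand, a single exon) was 16.2, 17.6 and 19.4 FPKM at its lowest, median and highest in CFA, against 16.9, 18.7 and 19.2 FPKM in saline. The groups overlapped across most of their range: 2 CFA libraries lay below every saline library and 1 lay above. The low end of the saline range was saline 6 alone, with 18.6 FPKM the next lowest saline value, and 5 CFA libraries lay below the saline median. The log2 difference was -0.07 (SE 0.05, 95% interval -0.17 to 0.04).

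The H2A.Z genes H2afz and H2afv encode a pair of nearly identical proteins, H2A.Z.1 and H2A.Z.2. H2afz (chromosome 3, 137864487 to 137866922, plus strand) was 40.0, 41.2 and 48.1 FPKM at its lowest, median and highest in CFA, against 41.1, 43.5 and 45.5 FPKM in saline. The highest of all 12 libraries was CFA 1, while 3 other CFA libraries were below every saline library. The log2 difference was -0.03 (SE 0.05, 95% interval -0.13 to 0.08). H2afv (chromosome 11, 6427229 to 6444443, minus strand) was 20.4, 22.1 and 23.4 FPKM in CFA, against 21.9, 22.3 and 25.5 FPKM in saline, with a log2 difference of -0.05 (SE 0.05, 95% interval -0.16 to 0.05). Saline 5 was above the other 11 libraries, and 3 CFA libraries were below all saline libraries.

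MacroH2A was split between H2afy, for macroH2A1, and H2afy2, for macroH2A2. H2afy (chromosome 13, 56073619 to 56136361, minus strand) was 11.2, 12.3 and 14.4 FPKM at its lowest, median and highest in CFA, against 11.8, 12.5 and 13.9 FPKM in saline (log2 difference -0.04, SE 0.06, 95% interval -0.17 to 0.09). H2afy2 (chromosome 10, 61738665 to 61784147, minus strand) was 7.50, 9.16 and 9.73 FPKM in CFA, against 8.69, 8.81 and 9.74 FPKM in saline (-0.03, SE 0.06, 95% interval -0.16 to 0.10). CFA 1 was the highest of all libraries for H2afy and the lowest for H2afy2, and for each gene 2 CFA libraries lay below the saline range with, for H2afy, CFA 1 above it. CFA 1 was also the library with the most striatal marker RNA; the part of that in these values was not tested. H2afy2 overlaps Aifm2 on the opposite strand, which averaged 2.36 FPKM in CFA and 2.46 FPKM in saline, and without a stated strand setting their shared reads cannot be told apart.

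H3f3a and H3f3b both encode H3.3. H3f3b (chromosome 11, 116021912 to 116027962, minus strand) was 62.7, 70.7 and 74.1 FPKM at its lowest, median and highest in CFA, against 60.3, 68.1 and 72.8 FPKM in saline. Its log2 difference of 0.04 (SE 0.05, 95% interval -0.08 to 0.15) was the only positive one of the 9, and with Xist as a covariate it was -0.02. H3f3a (chromosome 1, 180800832 to 180813943, minus strand) was 15.0, 16.0 and 16.7 FPKM in CFA, against 14.9, 17.2 and 17.6 FPKM in saline (-0.07, SE 0.05, 95% interval -0.18 to 0.03). All 6 CFA libraries were below the saline median for H3f3a, but saline 1 was the lowest of the 12. Reads of the H3.3 genes can be shared with retrocopies: H3f3a-ps1 averaged 4.71 FPKM in CFA and 5.60 FPKM in saline, and H3f3c, annotated as a processed pseudogene, 3.00 FPKM in CFA and 2.88 FPKM in saline.

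H1f0, the linker histone gene, had the second largest difference. H1f0 (chromosome 15, 79028450 to 79030504, plus strand, a single exon) was 34.7, 38.2 and 45.9 FPKM at its lowest, median and highest in CFA, against 38.6, 44.7 and 50.3 FPKM in saline. It averaged 38.7 ± 4.05 FPKM in CFA and 44.1 ± 4.60 FPKM in saline (SD, n = 6 each), with a log2 difference of -0.18 (SE 0.08, 95% interval -0.35 to -0.02). The groups overlapped: 4 CFA libraries were below every saline library, and CFA 5 was higher than 4 of the 6 saline libraries. Between libraries of a group H1f0 varied by 10.4%, about as much as H2afj at 10.8% and more than the other 7 genes.

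Together, 8 of the 9 genes had a negative difference and 1 a positive one, with a median log2 difference of -0.05, where the median over all tested genes was -0.00427 and 52.0% were negative. The deposited values were on a median ratio scale, which keeps the median over all genes small. As TPM, which moved the median over all tested genes to 0.03 and that of the 9 genes to -0.02, 5 were negative and 4 positive, H2afy (0.000259), H2afy2 (0.00865) and H2afz (0.0112) having turned with that common shift. In whole tissue, fewer cells of a type and less RNA per cell cannot be told apart. The 10 neuronal markers, Snap25 and Syt1 among them, were all lower in CFA (median log2 difference -0.08; summed FPKM 838 to 965 in CFA and 886 to 1024 in saline), and their part in the histone values was not tested.

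**Figure D2:**
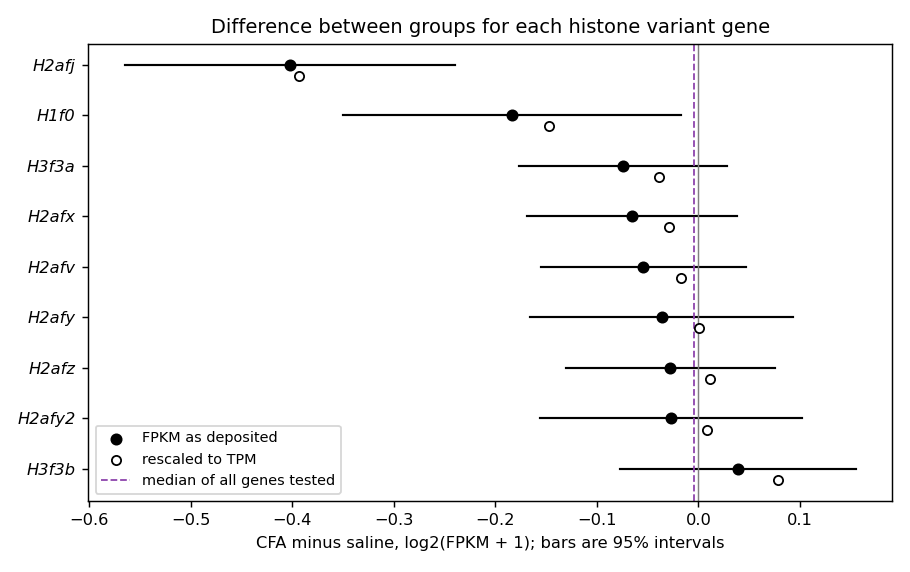
Difference of each histone variant gene, given as CFA minus saline in units of log2(FPKM + 1): filled points are the deposited FPKM with 95% intervals, open points the values rescaled to TPM, and the dashed line the median of all genes tested. H2afj lies farthest from the dashed line, at -0.40, followed by H1f0 at -0.18, and the other 7 genes lie between -0.07 and 0.04.

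The order of levels per length was tested over all 12 libraries, both groups pooled. The p-values measure the spread between libraries and do not cover an error in the deposited length of a gene. H3f3b was highest, at 68.9 ± 4.36 FPKM (SD, n = 12), with 96.0% of the tested genes at or below it. H2afz (42.9 FPKM) and H1f0 (41.4 FPKM) followed, then H2afv (22.4 FPKM), H2afx (18.1 FPKM), H3f3a (16.3 FPKM), H2afy (12.5 FPKM), H2afj (10.2 FPKM) and H2afy2 (8.97 FPKM). Neighbours in that order were compared within libraries by a two-sided sign-flip permutation test of log2 FPKM, exact over 4096 assignments, adjusted over the 8 pairs. H2afz did not differ from H1f0 beyond the spread (mean log2 ratio 0.06, SD 0.19, exact permutation p = 0.319, adjusted p = 0.319, H2afz higher in 8 of 12), nor H2afj from H2afy2 (0.17, SD 0.28, exact permutation p = 0.0635, adjusted p = 0.0725, higher in 9 of 12). Without CFA 2, CFA 3 or CFA 6 the adjusted p of H2afj over H2afy2 was 0.0458, 0.0458 and 0.0234, by the same exact permutation test, and the mean log2 ratio was -0.04 in CFA libraries alone and 0.37 in saline libraries alone. The other 6 neighbours differed, with adjusted p between 0.000977 and 0.00195 by the same exact permutation test. Of these, H2afy over H2afj was at a mean log2 ratio of 0.52 in CFA libraries alone and 0.11 in saline libraries alone, against 0.32 pooled. The pooled p-values of pairs with H2afj draw on its low CFA values, which were in view when the genes were chosen. The place of H2afj in the order is therefore not read from them. The closest of the 6 were H2afx and H3f3a, at a mean log2 ratio of 0.15 (higher in 11 of 12 libraries).

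In each class with a pair of genes, 1 gene held most of the summed FPKM, given the deposited lengths. H3f3b exceeded H3f3a 4.22-fold (log2 ratio 2.08, SD 0.09), H2afz exceeded H2afv 1.92-fold (0.94, SD 0.10) and H2afy exceeded H2afy2 1.40-fold (0.48, SD 0.19). Each was higher in 12 of 12 libraries, with an exact permutation p of 0.000488, the smallest that 12 libraries allow, and the same value after adjustment over the 3 pairs. H3f3b made up 81.4 ± 0.918% of summed H3.3 FPKM in CFA and 80.2 ± 0.679% in saline (SD, n = 6 each). H2afz made up 65.9 ± 1.61% of H2A.Z in CFA and 65.5 ± 1.72% in saline. H2afy made up 58.1 ± 4.51% of macroH2A in CFA, with 65.7% in CFA 1, and 58.3 ± 1.43% in saline. Within the 6 H2A variants, H2afj made up 7.75 ± 1.12% of summed FPKM in CFA and 9.93 ± 0.491% in saline; 5 of 6 CFA libraries were below the saline range of 9.02% to 10.3%.

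**Figure D3:**
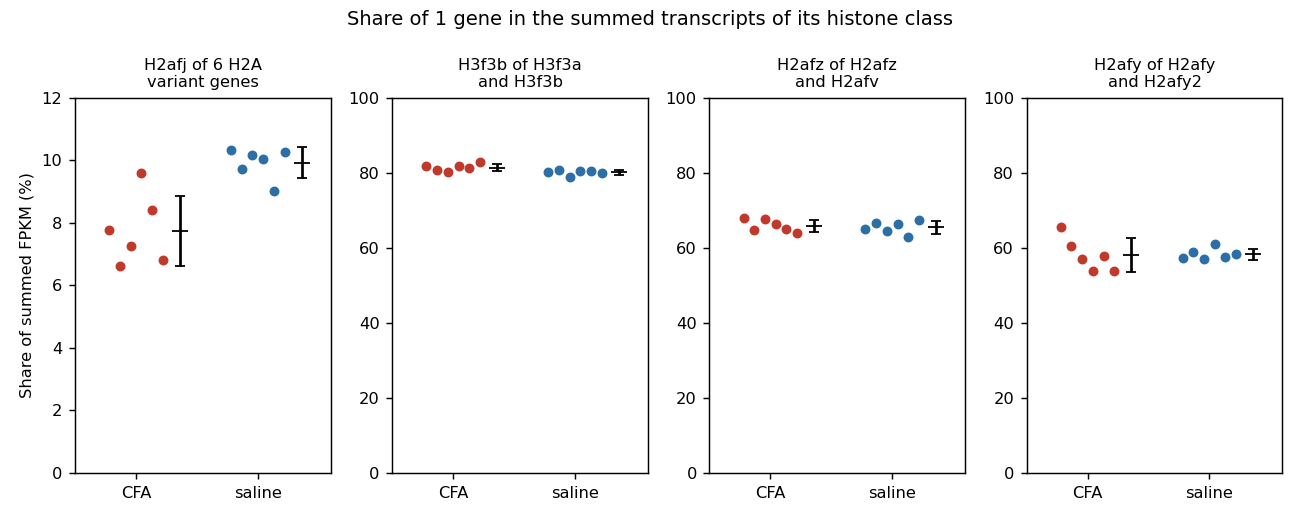
Share of 1 gene, in percent, in the summed FPKM of its histone class in every library (points), with CFA left of saline and the mean and SD (n = 6) beside each group; the H2afj axis ends at a lower value than the others. H3f3b lies between 78.9% and 82.8% of H3.3 in all libraries, and H2afj between 6.63% and 9.60% of the H2A variants in CFA and between 9.02% and 10.3% in saline.

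The clustered, replication-dependent genes were mostly low. Of 70 symbols that start Hist1h to Hist4h, 59 averaged under 1 FPKM, 9 were at 0 in every library and 10 passed the filter. Their sum was 89.7 ± 6.79 FPKM in CFA and 92.9 ± 7.75 FPKM in saline, against 236 ± 9.12 FPKM in CFA and 247 ± 11.7 FPKM in saline for the 9 variants (SD, n = 6 each). The highest were Hist3h2ba (23.8 FPKM in CFA, 24.4 in saline), Hist1h2bc (19.5 in CFA, 20.1 in saline) and the linker histone gene Hist1h1c (14.9 in CFA, 16.3 in saline), then Hist3h2a (4.82 in CFA, 5.46 in saline) and Hist2h2be (3.62 in CFA, 3.60 in saline). H3f3a and H3f3b thus held 94.96% to 97.1% of the FPKM summed over them and the clustered H3 genes, and the 6 variants 91.0% to 95.7% of that of H2A genes, in every library. The clustered H3 genes summed to 3.66 FPKM in CFA and 3.14 FPKM in saline. Retrocopies of the H3.3 genes were left out of the H3 sum, among them H3f3a-ps1 at 4.71 FPKM in CFA and 5.60 FPKM in saline. How the libraries were enriched for mRNA is not given in the labels.

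Of those 10 tested genes, 5 were positive and 5 negative in CFA (median log2 difference -0.01), and 0 passed limma at an adjusted p under 0.05, with 0 at an unadjusted p under 0.05. The smallest p values were those of Hist1h4k (0.27, SE 0.13, limma adjusted p = 0.662), Hist3h2a (-0.16, SE 0.10, adjusted p = 0.761) and Hist1h4i (0.18, SE 0.12, adjusted p = 0.779). Proliferation markers such as Mki67 and Top2a summed to 17.2 to 24.5 FPKM in CFA and 19.3 to 26.1 FPKM in saline. Of 9 such markers 5 passed the filter, 4 lower and 1 higher in CFA (median log2 difference -0.11). None passed limma, with 1 of them, lower in CFA, at an unadjusted p under 0.05. Of the other variant and linker histone genes, 1 of 8 passed the filter: H1fx, a linker histone gene, averaged 14.9 ± 1.95 FPKM in CFA and 16.8 ± 1.67 FPKM in saline (log2 difference -0.16, SE 0.08, limma adjusted p = 0.682).

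The genes whose products place or read the variants were compared in the same fit. Of 9 tested genes for H3.3 deposition, 7 were positive and 2 negative (median log2 difference 0.05), led by Atrx, the remodeller that works with Daxx (8.57 FPKM in CFA, 7.72 in saline; 0.13, SE 0.07, limma adjusted p = 0.710), Ubn2 of the HIRA complex (0.09, adjusted p = 0.808) and the chaperone gene Asf1a (0.09, adjusted p = 0.865). Of 22 tested genes for H2A.Z exchange, 15 were positive and 7 negative (median 0.02). Here Epc2, a subunit of the NuA4 complex, averaged 12.9 FPKM in CFA and 11.3 FPKM in saline (0.17, SE 0.06, limma adjusted p = 0.514). Znhit1, of the SRCAP complex, averaged 16.8 FPKM in CFA and 15.2 FPKM in saline (0.13, SE 0.05, adjusted p = 0.565), and Mrgbp averaged 4.38 FPKM in CFA and 3.72 FPKM in saline (0.18, SE 0.07, adjusted p = 0.580).

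Of 13 tested genes that write, read or erase H2A.X phosphorylation, 7 were positive and 6 negative (median 0.02). Eya3, a phosphatase gene, averaged 6.65 FPKM in CFA and 6.05 FPKM in saline (0.12, limma adjusted p = 0.608), followed by its relative Eya1 (0.13, adjusted p = 0.675) and the ubiquitin ligase gene Rnf8 (-0.10, adjusted p = 0.738). Of 8 tested genes for transcription and processing of replication-dependent histone mRNAs, 4 were positive and 4 negative (median 0.01), with Npat (0.09, adjusted p = 0.777), Casp8ap2 (0.08, adjusted p = 0.820) and Ncbp1 (0.05, adjusted p = 0.848) at the smallest p.

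Genes associated with senescence, the state in which H2A.J was described, were split as well: 5 of 10 tested were positive and 5 negative (median -0.01). Cdkn1a, the cell cycle inhibitor p21, was 8.31, 11.1 and 13.6 FPKM at its lowest, median and highest in CFA, against 6.12, 7.57 and 8.22 FPKM in saline, so the groups did not overlap, as in 0.202% of tested genes with CFA above saline. It averaged 11.0 ± 1.75 FPKM in CFA and 7.44 ± 0.786 FPKM in saline (SD, n = 6 each; log2 difference 0.50, SE 0.10, limma adjusted p = 0.140) and passed only without CFA 1 (0.57, adjusted p = 0.0226). Cdkn1c (-0.41, adjusted p = 0.693) and Cdkn1b (0.07, adjusted p = 0.801) came next. Over all 7 lists, 0 of 73 tested genes passed by limma and 0 by limma's voom on recovered reads; at an unadjusted p under 0.05 there were 7, or 9.59%, against 7.67% of all genes tested. Of the 7, 6 were higher and 1 lower in CFA, where 3.11% of all genes tested were higher and 4.56% lower, and 5 of them were among the 22 for H2A.Z exchange.

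The deviations of libraries from their group mean were compared between the variants. Of the 36 pairs of genes, 25 had a positive Pearson r of these deviations over 12 libraries, and 0 passed a permutation test within groups (100000 resamples, two-sided) adjusted over the pairs, by Pearson or Spearman, with 6 pairs at an unadjusted Pearson p under 0.05. The pair with the smallest p, H2afy and H3f3a, did not pass (r = 0.72, permutation p = 0.00584, adjusted p = 0.210; rho = 0.80, permutation p = 0.00474, adjusted p = 0.0940; r = 0.81 without the 2 libraries farthest from the H2afy median). The most negative r, of H2afx and H2afz, did not pass either (r = -0.67, permutation p = 0.0297, adjusted p = 0.263; rho = -0.78, permutation p = 0.00522, adjusted p = 0.0940; r = -0.66 without the 2 farthest). H3f3a and H3f3b had r = 0.65 (permutation p = 0.0365, adjusted p = 0.263), rho = 0.46 (permutation p = 0.144, adjusted p = 0.494) and r = 0.59 without the 2 farthest. H2afj had no r above 0.26 with any other variant over the 12 libraries. Its strongest was with H2afv: r = -0.54 (permutation p = 0.0684, adjusted p = 0.352), rho = -0.44 (permutation p = 0.236, adjusted p = 0.613) and r = -0.43 without the 2 farthest. Its low r values depended on few libraries. Without the 2 farthest, r was 0.60 with H2afy, 0.57 with H3f3a, 0.40 with H1f0, 0.33 with H3f3b and 0.22 with H2afz. It was -0.24 with H2afx and -0.43 with H2afy2, and these values were not tested.

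**Figure D4:**
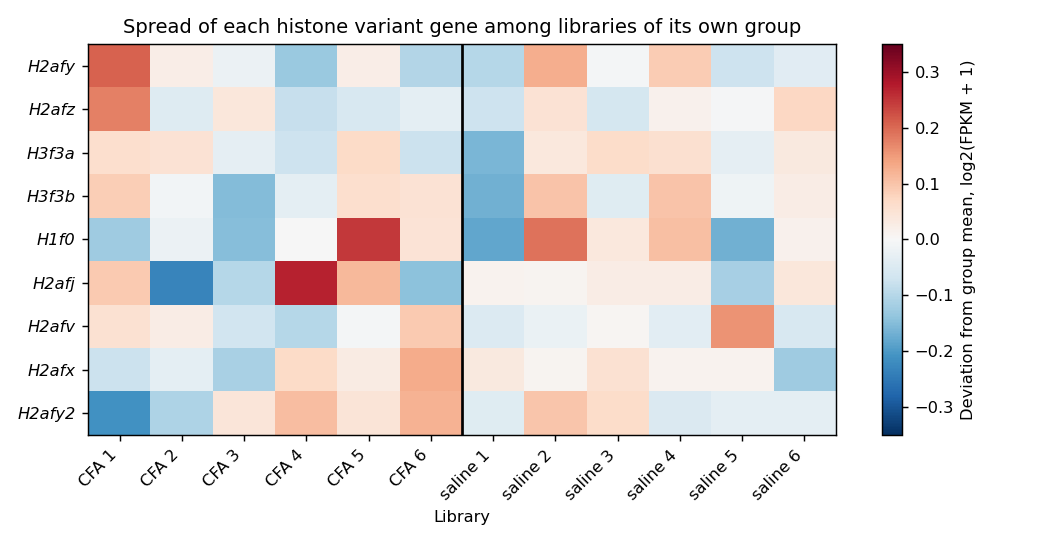
Deviation of each histone variant gene (rows) from the mean of its own group in each library (columns, CFA left of saline), on the log2(FPKM + 1) scale, red above and blue below the mean. CFA 1 stands high for H2afy (0.21) and H2afz (0.18) and low for H2afy2 (-0.21), and saline 1 stands low for H3f3a (-0.16), H3f3b (-0.17) and H1f0 (-0.18).

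Among 12113 other named genes, those whose deviations followed H2afj most closely over the 12 libraries were Itfg2 (r = 0.93, rho = 0.90), the tubulin gene Tubb2b (r = 0.90, rho = 0.73), Drg1 (r = 0.89, rho = 0.59), Aspscr1 (r = 0.88, rho = 0.83) and Zfp775 (r = 0.87, rho = 0.73). Between the groups they did not all go with H2afj: Itfg2 averaged 3.02 FPKM in CFA and 3.55 FPKM in saline, but Tubb2b 46.8 FPKM in CFA and 46.4 FPKM in saline. The sum of H3f3a and H3f3b was followed most closely by Zfp810 (r = 0.90, rho = 0.87), Rrp15 (r = 0.88, rho = 0.77), Abracl (r = 0.87, rho = 0.73), Cep164 (r = 0.87, rho = 0.84) and Zfp1 (r = 0.86, rho = 0.85). These are the highest values out of a search over all genes, so no p belongs to them.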

How the data were processed

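RNA of 12 mouse lateral septum libraries was sequenced as paired ends, per the labels' protocols. Reads were aligned with HISAT2 2.0.5 to mm10, per the submitters' processing notes; not given in the sources used here are the read counter, its strand setting and its gene models. Values deposited by the authors were FPKM, with a gene length in bases. Deposited FPKM times length fell in whole steps, so reads were recovered. Of the 23106 to 25750 nonzero values checked per library, 100% were within 0.01 read of a whole number. The genes with the most reads were left out of that check. The divisor was 0.990 to 1.03 times the recovered sum, and median ratio factors computed from the deposited FPKM were 1 in every library. The deposited values were thus already on a median ratio scale, which keeps the median difference over all genes small. Coordinates of all 9 genes were those of GENCODE M21 (GRCm38, mm10). A further 6 columns of per-sample values matched no sample and were not used.

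Groups came from the labels. limma 3.58.1 (R 4.3.3, eBayes with trend, two-sided) was fitted on log2(FPKM + 1) to the 13345 genes with 1 FPKM or more in 6 or more libraries, with Benjamini-Hochberg adjustment and a threshold of 0.05, and tested on simulated data. Sign-flip and within-group permutation tests used Python 3.11.15 with numpy 2.4.6 and scipy 1.17.1, and figures matplotlib 3.10.9. Named genes were the 9 variants, up to 3 tested genes of each of 7 lists with the smallest p, the 5 replication-dependent genes with the highest mean, the 5 genes closest to H2afj and to summed H3.3, and Xist, Ddx3y and Ttr. The genes and lists were chosen with earlier results of these data known. Alternatives changed the pseudocount, filter, scaling, variance model, covariates and libraries.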

Additional observations from a re-analysis of the deposited data

Results flagged for a closer look

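Each of the 18 sets of 6 values, 9 genes in 2 groups, was searched for a library whose gap to its nearest neighbour exceeded Dixon's 95% critical value of 0.625 of the range. Chance alone gives such a gap in about 1 in 20 sets, and 3 were found. In saline 5, H2afj was 10.7 FPKM, with 11.8 FPKM the next lowest saline value (gap 0.807 of the range). In the same library H2afv was 25.5 FPKM, with 22.9 FPKM the next highest saline value (gap 0.723). In saline 6, H2afx was 16.9 FPKM, with 18.6 FPKM the next lowest (gap 0.734). Saline 5 was also a library high in Ttr (701 FPKM), and the part of choroid plexus tissue in these values was not tested.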

How the results depend on the processing

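The log2 difference ranged over -0.46 to -0.33 for H2afj, whose sign no left-out library could turn, over -0.23 to -0.15 for H1f0 and over -0.09 to -0.02 for the median of the 9 variants. The other filters, median ratio scaling, the fit without variance trend and the replicate block leave a gene's fold unchanged by construction. Signs turned for H2afy, H2afy2 and H2afz as TPM, for H3f3b with Xist as covariate (-0.02) and for H2afy2 without CFA 1 (0.02). The 4 genes past the threshold over all genes became 2 with no filter on low values, 2 without the variance trend, 1 with Xist as covariate and 1 over libraries with Xist only. Leaving out 1 library gave 1 to 11: 10 without CFA 1, 1 without CFA 6, 2 without saline 2, 11 without saline 3, 2 without saline 4 and 1 without saline 5. The causes were not tested. As TPM the split was 3 higher and 1 lower, against 2 and 2. In the lists, leaving out 1 library gave 0 to 1 genes, the 1 being Cdkn1a without CFA 1.

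With the replicate number as a block, 1 gene passed. The deviations of same-numbered libraries correlated at -0.0118 to 0.159. CFA 1, CFA 4 and CFA 5 correlated best with the saline library of their own number. Saline 2 and saline 6 correlated best with the CFA library of their own number, and the remaining libraries with another number. The labels do not say whether same-numbered libraries were paired.

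In saline libraries alone, where 6 libraries allow an exact permutation p no smaller than 0.03125, none of the neighbours in the order of levels passed after adjustment (the smallest adjusted p was 0.05), while in CFA libraries alone the same 6 neighbours as in the pooled libraries passed (adjusted p = 0.0417 each, exact permutation test). Whether any pair passes depends on how many pairs reach 0.03125, so this contrast is not read as a weaker order in saline. The saline mean log2 ratios were 0.65 (H3f3b over H2afz), 0.95 (H1f0 over H2afv), 0.30 (H2afv over H2afx), 0.14 (H2afx over H3f3a), 0.40 (H3f3a over H2afy) and 0.11 (H2afy over H2afj). For H2afj over H2afy2, leaving out 1 library gave 0.14 to 0.21. Depth limits the variants little, with at least 489 reads behind every value.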
